A study of Mus musculus with 7 samples.

Results

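The genes described here are the core regulators of the cell division cycle: cyclins, cyclin-dependent kinases (CDKs), their inhibitors, the E2F transcription factors, the retinoblastoma (pocket) proteins, and the phosphatases, kinases and Myc proteins that act with them. Members were chosen by symbol from a list of 41, taking probe sets that the platform annotation pairs with that symbol alone. Of the 41, 39 were measured, on 72 of 28898 single-symbol probe sets and among 17097 genes in all. Ccnb1 and Cdc25a, a mitotic cyclin and the CDK-activating phosphatase of S-phase entry, were not analysed here because no probe set was paired with either symbol alone.

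Colon adenoma cells of 2 genotypes were profiled on Affymetrix mouse arrays, 3 from KO and 4 from WT animals. The study used Mex3a tom/flox and Tom/+ animals, read here as KO and WT in that order, so both groups held the Tomato reporter on one Mex3a copy and KO had a floxed, WT a wild-type, allele on the other. All animals also carried Villin CreERT2, a Cre recombinase that tamoxifen switches on in cells using the Villin promoter of gut epithelium, and APC fl/+, a heterozygous floxed Apc, the tumour suppressor whose loss starts colon adenomas. They received 4 doses of tamoxifen and then the colitis-inducing polymer DSS at 2% for 5 days, and adenomas were taken 2 months later, counted from the end of DSS in the design text and from induction in the growth protocol; age is not given in the labels. Cells were sorted by FACS for the epithelial protein Epcam and for Tomato, which reads Mex3a promoter activity. RNA came from 2000 cells per sample and was amplified over 24 cycles, and the labels do not tie arrays to animals, so p-values reflect only the scatter among these arrays, part of which may be technical. Scan batch 1 held 1 KO and 2 WT arrays, and scan batch 2 held 2 of each.

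In the cell cycle, D-type cyclins with Cdk4 and Cdk6 phosphorylate the retinoblastoma proteins in G1, which frees activator E2F factors to switch on cyclin E, cyclin A and the genes of DNA replication. Cyclin A and B with Cdk1 then drive G2 and mitosis, and inhibitors of the Cip/Kip and Ink4 families hold CDKs back when cells leave the cycle. Mex3a encodes an RNA-binding protein of intestinal stem and progenitor cells, and the comparison reads these regulators in Mex3a-promoter-active adenoma cells of the KO and WT genotypes.

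As the check of the genotype labels, Mex3a read 6.18, 6.29 and 6.07 in KO arrays, against 7.41, 7.38, 7.50 and 7.01 in WT arrays, on the log2 scale used throughout (arrays in replicate order). Every KO array lay below every WT array, with an exact permutation p of 0.0286, the smallest that 35 splits of 7 arrays allow. The splits behind this and the other exact p values ignore scan batch; 18 splits keep each batch's numbers of KO and WT arrays, and the smallest p they could give is 0.0556. Mex3a stayed above the level filter in KO arrays, 2.19-fold below WT (limma, adjusted p = 0.142), a log2 difference of -1.13. A dimmer Mex3a probe set, also without overlap, gave a smaller difference of -0.60 (SE 0.15), and the mean of both gave -0.87. Epcam stood between 11.88 and 11.99 in KO arrays and between 11.87 and 11.99 in WT arrays. Of other cell types' markers, 10 of 15 leukocyte, 6 of 9 fibroblast and 4 of 6 endothelial genes lay above the level filter; those below it were Ptprc, Cd3e, Ms4a1, Adgre1 and Itgam, Col1a2, Lum and Pdgfra, and Tek and Emcn, list by list.

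Cell cycle regulators differed little between the genotypes. None of the 37 members that passed a filter on low levels was called at an adjusted p under 0.05 (limma, Benjamini-Hochberg over 12822 genes), and the share called among all genes was also 0%. With array weights, a setting that gives KO replicate 1 the least weight, limma called 5 members (13.5%), against 10.7% of all genes. The largest difference in size among the 37 was 0.39, or 1.31-fold, so 0 reached 0.5, as 1.27% of all genes did, and the 95% confidence interval lay within ±0.5 (1.41-fold) for 30 of them (81.1%), as it did for 83.3% of all genes tested. At an unadjusted p under 0.05 there were 5 members (13.5%), namely Rb1, Rbl1 and Cdkn3 with higher means and Ccnd2 and Ccnf with lower means in KO; the share of all genes was 11.4%, made up of 7.14% higher and 4.26% lower. The genotypes were fully separated for 4 members (10.8%), Rb1 with KO above and Ccnd2, Ccnf and Rbl2 with KO below, where 5.91% of all genes were, 2.68% with KO above and 3.23% with KO below. Differences were negative in 26 of 37 members (70.3%, against 56.1% of all genes) and positive in 11 (against 43.9% of all genes), and the median was -0.037, against -0.019 over all genes. In sorted bulk RNA, fewer cells in a phase and less transcript per cell cannot be told apart.

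**Figure D1:**
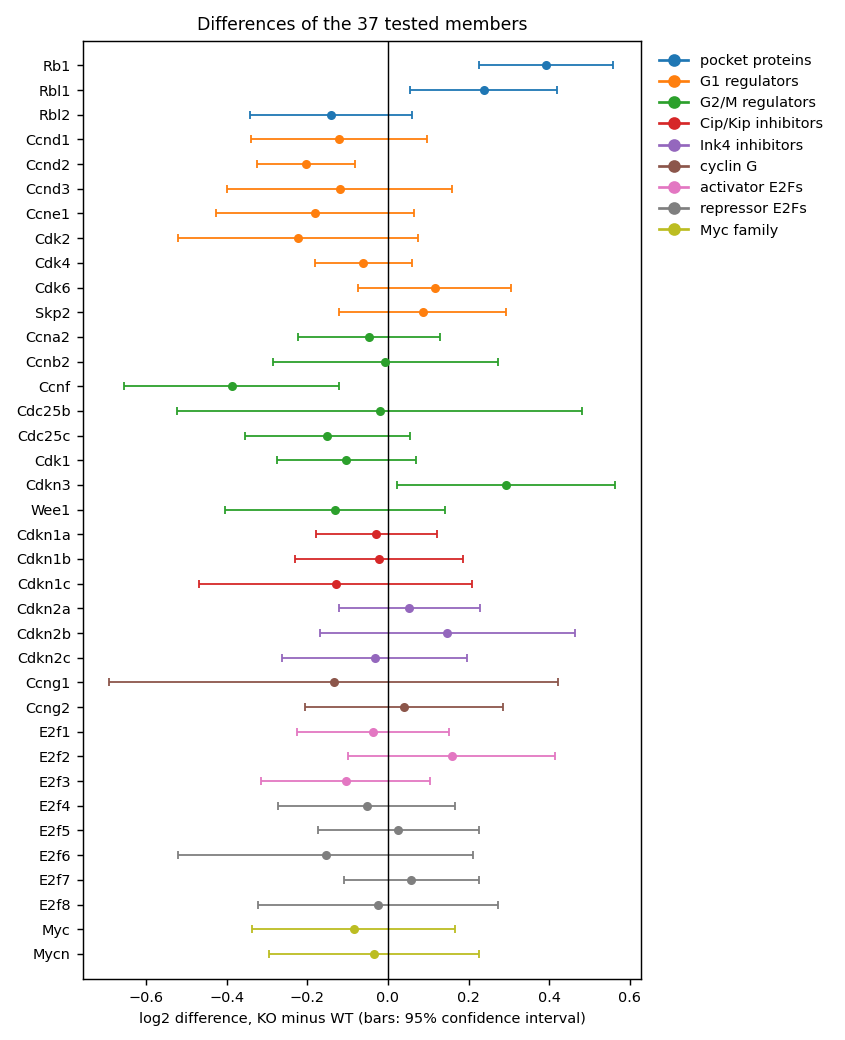
Log2 difference (KO minus WT) with its 95% confidence interval for the 37 tested members, in rows grouped and coloured by role. All points lie within 0.39 of 0, and 5 intervals do not cross 0: those of Rb1, Rbl1 and Cdkn3 on the positive side and Ccnd2 and Ccnf on the negative side.

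Promoter stretches of 4 members are shown because cell cycle regulators fall under different control elements in textbook accounts. Rbl1 is an E2F target, and Ccnf and Cdkn3 are late cell cycle genes whose differences ran in opposite directions. Cdk1 carries both kinds of element. Rbl1, Ccnf and Cdkn3 were among the members with an unadjusted limma p under 0.05. So were Rb1 and Ccnd2, for which no promoter sequence was at hand. Each stretch is the 250 bases before the gene's start in RefSeq (GRCm38.p6), printed 5′ to 3′ on the gene's strand. The stretches are Rbl1 at chr2:157204535-157204784 (minus strand), Ccnf at chr17:24251410-24251659 (minus strand), Cdkn3 at chr14:46760291-46760540 (plus strand) and Cdk1 at chr10:69352913-69353162 (minus strand). Capitals mark matches on either strand to the E2F motif (TTTCCCGC, TTTCGCGC, TTTGCCGC or TTTGGCGC), the cell cycle genes homology region or CHR (TTTGAA or TTCGAA), bound by the DREAM and MuvB complexes, and the CCAAT box, bound by NF-Y.
Rbl1: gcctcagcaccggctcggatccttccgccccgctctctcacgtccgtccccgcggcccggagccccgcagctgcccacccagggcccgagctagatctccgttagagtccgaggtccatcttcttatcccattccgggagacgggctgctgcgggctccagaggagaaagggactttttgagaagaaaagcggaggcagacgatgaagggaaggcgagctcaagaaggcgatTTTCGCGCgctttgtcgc
Ccnf: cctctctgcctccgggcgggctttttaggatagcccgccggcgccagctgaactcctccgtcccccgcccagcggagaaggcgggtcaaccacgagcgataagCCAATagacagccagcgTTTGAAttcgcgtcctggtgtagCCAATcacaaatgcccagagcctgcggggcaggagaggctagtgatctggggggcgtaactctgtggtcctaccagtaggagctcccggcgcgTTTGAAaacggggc
Cdkn3: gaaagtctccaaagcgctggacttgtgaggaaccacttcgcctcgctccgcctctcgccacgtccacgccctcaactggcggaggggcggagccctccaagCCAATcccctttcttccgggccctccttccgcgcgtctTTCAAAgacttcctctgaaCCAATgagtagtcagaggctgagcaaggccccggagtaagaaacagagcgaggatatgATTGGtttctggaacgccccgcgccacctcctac
Cdk1: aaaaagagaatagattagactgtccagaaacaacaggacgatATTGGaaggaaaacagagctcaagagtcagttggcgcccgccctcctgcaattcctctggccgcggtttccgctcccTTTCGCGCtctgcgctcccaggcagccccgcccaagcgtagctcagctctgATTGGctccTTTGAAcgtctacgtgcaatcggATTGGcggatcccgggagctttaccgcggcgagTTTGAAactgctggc

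The Rbl1 stretch holds an E2F match that begins 18 bases before the start and neither of the other motifs. Ccnf has CHR matches at 130 and 14 bases and CCAAT at 147 and 107 bases, while Cdkn3 has a CHR match at 111 bases and CCAAT at 149, 92 and 34 bases, the CHR match and the last CCAAT on the other strand. Cdk1 has an E2F match at 131, CHR matches at 71 and 15, and 3 CCAAT boxes on the other strand at 208, 80 and 48 bases. No marked matches overlap one another. RefSeq promoters were matched for 28 members, with 35 starts; an E2F match occurred in 20% of these, a CHR match in 31.4% and CCAAT in 45.7%, against 1.86%, 17.1% and 33.8% of all 32851 promoters of the same length. These are matches of letters and describe no binding.

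The pocket proteins held the member with the smallest p. Rb1, the retinoblastoma protein that keeps E2F factors silent in G1, read 6.36, 5.98 and 6.05 in KO arrays, against 5.82, 5.88, 5.77 and 5.62 in WT arrays. All KO arrays lay above all WT arrays, and KO replicate 1 was the highest of the 7. The KO mean was 6.13 ± 0.20 (SD, n = 3) and the WT mean 5.78 ± 0.11 (SD, n = 4), with a difference of 0.39 (SE 0.072; 95% interval 0.23 to 0.56), an unadjusted limma p of 6.53e-04, an adjusted limma p of 0.329 and an exact permutation p of 0.0286. Within scan batch 1 the difference was 0.50 and within scan batch 2 it was 0.32. A dimmer Rb1 probe set, at 4.44 ± 0.061 in KO and 4.52 ± 0.10 in WT (SD, n = 3 and 4), gave -0.076 (SE 0.063), so the difference rests on the brighter one, and the mean of both probe sets gave 0.16.

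Rbl1 (p107), the pocket protein that is itself made in cycling cells and whose E2F match is shown above, read 6.40, 6.17 and 6.05 in KO arrays, against 6.14, 5.99, 6.00 and 5.88 in WT arrays. KO replicate 3 fell inside the WT range, so the groups overlapped. Its difference was 0.24 (SE 0.079), with an unadjusted limma p of 0.0169, an adjusted limma p of 0.410 and an exact permutation p of 0.114. The difference was 0.34 within scan batch 1 and 0.17 within scan batch 2. A dimmer Rbl1 probe set gave 0.038 (SE 0.069). Rbl2 (p130), the pocket protein of resting cells, went the other way, at 5.99, 6.04 and 5.92 in KO arrays, against 6.36, 6.07, 6.07 and 6.06 in WT arrays. The groups did not overlap, but the other 3 WT arrays lay close to the highest KO array while WT replicate 1 stood apart. The difference of Rbl2 was -0.14 (SE 0.087, 95% interval -0.34 to 0.059), with an adjusted limma p of 0.540 and an exact permutation p of 0.0857. It was -0.085 without KO replicate 1 or without WT replicate 1, and the dimmer Rbl2 probe set gave 0.12 (SE 0.055).

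**Figure D2:**
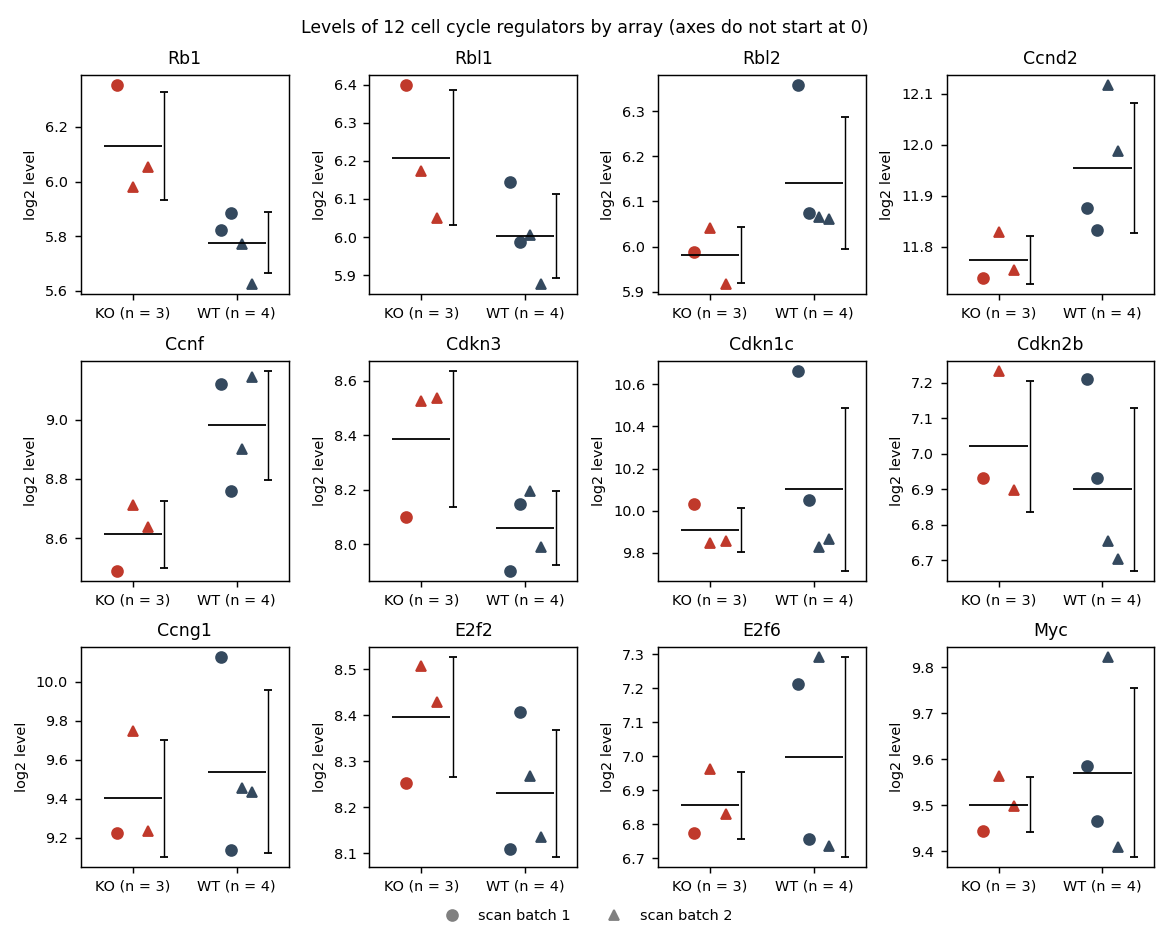
Log2 level (vertical axes, which do not start at 0) of 12 members in each array, KO at the left and WT at the right of each panel. Circles are scan batch 1 and triangles scan batch 2, horizontal lines are group means and bars are ± SD; Rb1 lies higher in all KO arrays, Ccnd2, Ccnf and Rbl2 lie lower, and the other 8 members overlap.

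Among the G1 regulators, 1 of 8 tested members had an unadjusted p under 0.05 (11.4% of all genes did), and 6 had negative differences (56.1% of all genes). Their median was -0.12, against -0.019 over all genes, and came to -0.025 with the Gapdh 3′ minus 5′ difference, a measure of RNA quality, as a covariate. In scan batch 2 both KO arrays lay below both WT arrays in that covariate, so there it cannot be told apart from genotype. Ccnd2, a D-type cyclin and a Wnt-responsive gene of the crypt, read 11.74, 11.83 and 11.75 in KO arrays, against 11.88, 11.83, 12.12 and 11.99 in WT arrays. The groups just failed to meet: KO replicate 2 and WT replicate 2 both round to 11.83. The KO mean was 11.77 ± 0.048 (SD, n = 3), against a WT mean of 11.95 ± 0.13 (SD, n = 4). The difference was -0.20 (SE 0.053, 95% interval -0.33 to -0.082). Its unadjusted limma p was 0.00489, its adjusted limma p 0.388 and its exact permutation p 0.0857. All 6 Ccnd2 probe sets gave a negative difference, the other 5 between -0.17 and -0.0032, each with overlap between the groups.

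Ccnd1, the D-type cyclin best known as a target of β-catenin, read 11.18, 11.35 and 11.37 in KO arrays, against 11.31, 11.59, 11.51 and 11.25 in WT arrays. These ranges overlap, the difference was -0.12 (SE 0.095), and its 3 probe sets agreed in sign. Ccnd3, the remaining D cyclin, differed by -0.12 (SE 0.12). Their partner kinases Cdk4 and Cdk6 differed by -0.061 (SE 0.052) and 0.12 (SE 0.082), and for Cdk4, read at 11.40, 11.33 and 11.33 in KO arrays against 11.50, 11.37, 11.45 and 11.36 in WT arrays, the 95% interval of -0.18 to 0.059 was the narrowest of the tested members.

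Cyclin E with Cdk2 carries cells from G1 into S phase. Ccne1 read 7.58, 7.41 and 7.43 in KO arrays, against 7.54, 7.48, 7.82 and 7.72 in WT arrays, a difference of -0.18 (SE 0.11). Cdk2 read 7.84, 7.61 and 7.57 in KO arrays, against 8.04, 7.68, 8.07 and 7.83 in WT arrays, a difference of -0.22 (SE 0.13). For both genes the KO arrays of scan batch 2 lay below every WT array while KO replicate 1 did not. Ccne2 was measured between 3.92 and 3.98 in KO arrays and between 3.89 and 3.92 in WT arrays, under the level filter. Skp2, the subunit of the SCF ubiquitin ligase that removes the inhibitor p27, differed by 0.086 (SE 0.089) with overlap. Dimmer Skp2 probe sets, also with overlap, gave 0.062 (SE 0.065) and 0.11 (SE 0.042). The latter, the dimmest, had an unadjusted limma p of 0.0345 and an adjusted limma p of 0.471 over all probe sets.

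Of the G2/M regulators, all 8 that were measured were tested, 7 had negative differences (56.1% of all genes) and the median was -0.075. With the Gapdh 3′ minus 5′ difference as a covariate this median came to -0.12. At an unadjusted p under 0.05, 1 member had a higher mean (7.14% of all genes) and 1 a lower mean (4.26% of all genes). Ccnf, the cyclin that gives the F-box proteins their name and directs ubiquitination in G2, read 8.49, 8.71 and 8.64 in KO arrays, against 9.12, 8.76, 8.90 and 9.14 in WT arrays. No KO array reached the WT range. KO arrays averaged 8.61 ± 0.11 (SD, n = 3), against 8.98 ± 0.18 (SD, n = 4) for WT arrays, a difference of -0.39 (SE 0.12; 95% interval -0.65 to -0.12) with an unadjusted limma p of 0.0101, an adjusted limma p of 0.394 and an exact permutation p of 0.0571. It was -0.45 within scan batch 1 and -0.35 within scan batch 2. A second, dim Ccnf probe set stood between 4.50 and 4.57 in all arrays.

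Cdkn3, a phosphatase that dephosphorylates Cdk2 and Cdk1 and is made late in the cycle, read 8.10, 8.52 and 8.54 in KO arrays, against 7.90, 8.15, 8.20 and 7.99 in WT arrays. The KO arrays of scan batch 2 lay above all WT arrays, and KO replicate 1 lay inside their range. The difference was 0.29 (SE 0.12, 95% interval 0.022 to 0.56). Its unadjusted limma p was 0.0375, its adjusted limma p 0.423 and its exact permutation p 0.114. The difference was 0.074 within scan batch 1 and 0.44 within scan batch 2. With the Gapdh 3′ minus 5′ difference as a covariate it came to 0.13, with an unadjusted limma p of 0.275 and an adjusted limma p of 0.833. That Gapdh difference was -0.15, -0.213 and -0.24 in KO arrays, against -0.13, -0.209, -0.12 and -0.12 in WT arrays. It was lowest in the 2 KO arrays where Cdkn3 was highest, but WT replicate 2 nearly matched KO replicate 2. In scan batch 2 both KO arrays lay below both WT arrays, so there the Gapdh difference and genotype cannot be told apart. Its part in the Cdkn3 difference was not tested.

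The kinase and cyclins of mitotic entry differed little in their group means. Cdk1 read 9.41, 9.52 and 9.58 in KO arrays, against 9.56, 9.54, 9.56 and 9.70 in WT arrays, a difference of -0.10 (SE 0.075; 95% interval -0.28 to 0.069). Ccna2, the cyclin of S phase and G2, read 10.02, 10.35 and 10.37 in KO arrays, against 10.21, 10.22, 10.36 and 10.26 in WT arrays. Its difference was -0.047 (SE 0.076), while a second probe set, with overlap, gave 0.21 (SE 0.13). Ccnb2, a B-type cyclin, read 8.18, 8.54 and 8.61 in KO arrays, against 8.56, 8.38, 8.47 and 8.33 in WT arrays, and differed by -0.0061 (SE 0.12). In each of these 3 genes KO replicate 1 was the lowest of the 7 arrays.

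Cdc25b, a phosphatase that activates Cdk1 before mitosis, showed the widest range of all members, 1.05 on the log2 scale. It read 6.81, 7.35 and 7.85 in KO arrays, against 7.35, 7.48, 7.35 and 7.11 in WT arrays, so that the lowest and the highest array were both KO. The difference of -0.020 (SE 0.22) came from -0.61 within scan batch 1 and 0.37 within scan batch 2. Cdc25c, its relative, differed by -0.15 (SE 0.089), and Wee1, the kinase that holds Cdk1 inactive, by -0.13 (SE 0.12), each with overlap.

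Values of the G2/M regulators were lowest mostly in a single array. KO replicate 1 was the lowest array for 6 of the 8 G2/M regulators (75%) and for 18.6% of all genes tested; its mean deviation from the average array was -0.23 over these 8 genes, against 0.053 and 0.10 in KO replicates 2 and 3 and between -0.019 and 0.046 in the WT arrays. The median difference of the G2/M regulators was -0.20 within scan batch 1, where KO replicate 1 is the single KO array, and -0.013 within scan batch 2. For the G1 regulators it was 0.027 within scan batch 1 and -0.17 within scan batch 2. The groups of scan batch 1 and of scan batch 2 share no array, and 20 of 37 members (54.1%) had the same sign in both, against 50.1% of all genes. KO replicate 1 also had an actin 3′ minus 5′ difference of -0.30, a measure of RNA quality, against -0.51 to -0.43 in the other arrays. Its Gapdh 3′ minus 5′ difference, at -0.15, lay inside the range of the other arrays, -0.24 to -0.12. Both differences were negative in every array, so the 5′ probe sets read above the 3′ ones throughout. The part of RNA quality in the G2/M values of KO replicate 1 was not tested.

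**Figure D3:**
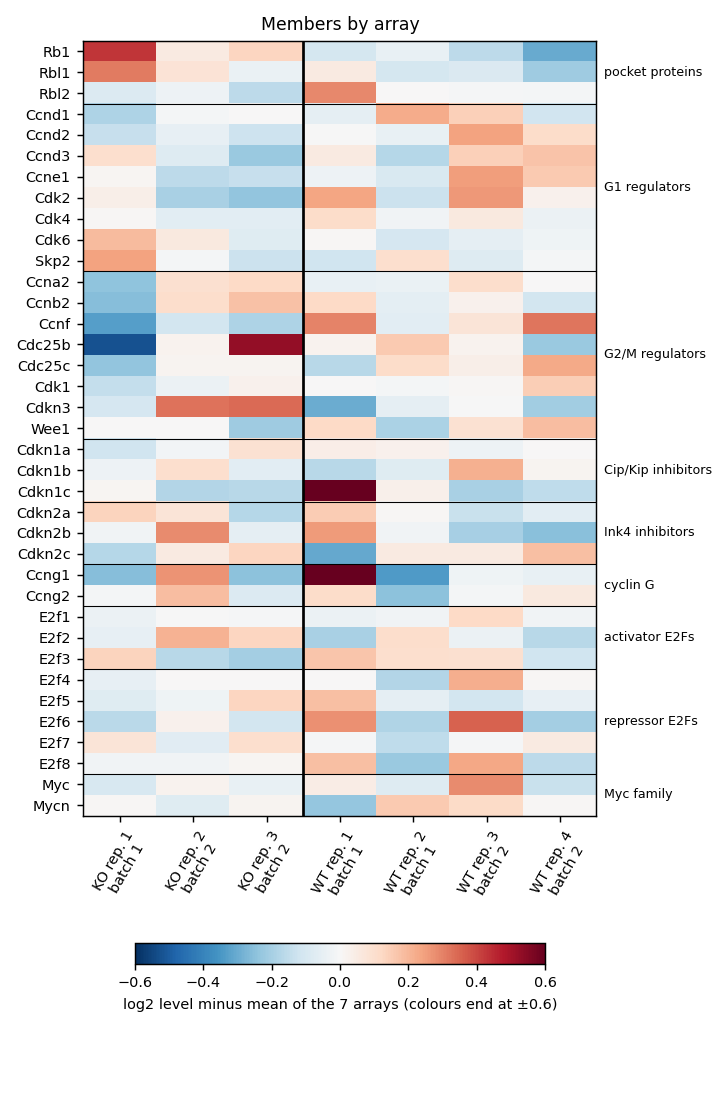
Deviation of each tested member from its mean over the 7 arrays (log2; red above, blue below; colours end at ±0.6), with KO arrays at the left of the vertical line and WT arrays at the right, and roles separated by horizontal lines. The G2/M rows are mostly blue in KO replicate 1, the Rb1 row is red in all KO arrays, and Cdkn1c and Ccng1 are darkest in WT replicate 1.

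**Figure D4:**
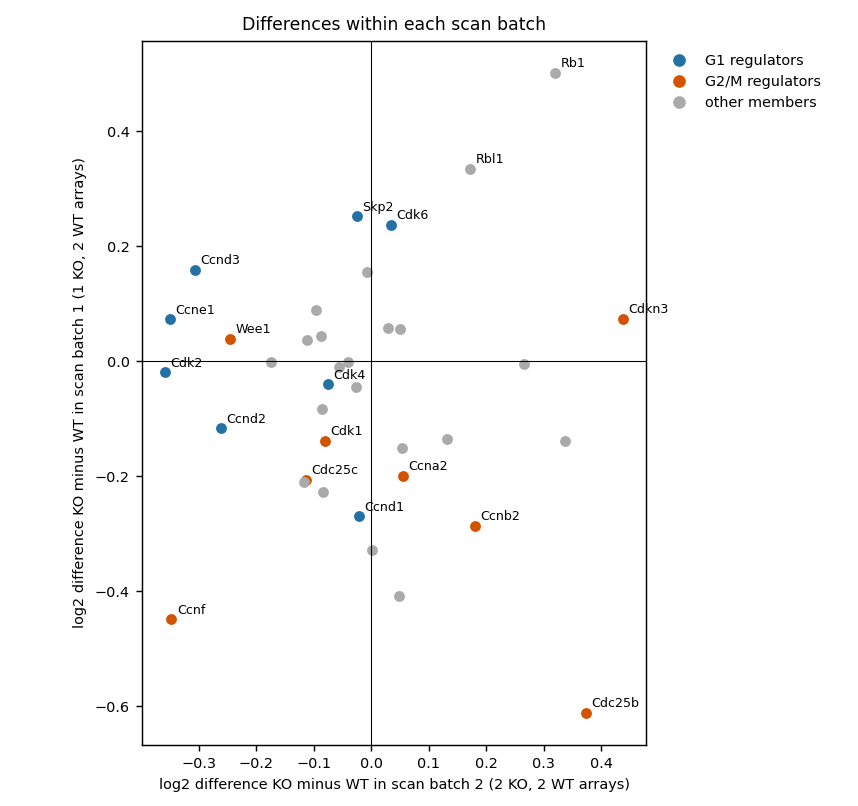
Log2 difference (KO minus WT) of the 37 tested members within scan batch 2 (horizontal axis) and within scan batch 1 (vertical axis, with a single KO array), coloured for G1 and G2/M regulators. Rb1 and Rbl1 lie in the upper right and Ccnf in the lower left, while Cdc25b lies at -0.61 in scan batch 1 and 0.37 in scan batch 2.

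Inhibitors of the Cip/Kip family, which bind cyclin-CDK complexes, showed no difference at an unadjusted p under 0.05. Cdkn1a (p21), the p53-induced inhibitor, read 10.72, 10.82 and 10.93 in KO arrays, against 10.88, 10.87, 10.81 and 10.84 in WT arrays, with a difference of -0.029 (SE 0.065; 95% interval -0.18 to 0.12). Cdkn1b (p27), an inhibitor of resting and differentiating cells, read 9.72, 9.85 and 9.69 in KO arrays, against 9.59, 9.68, 9.96 and 9.77 in WT arrays, a difference of -0.023 (SE 0.09). The genotypes overlapped for both genes. A dimmer probe set of each, also with overlap, gave -0.17 (SE 0.080) for Cdkn1a and 0.18 (SE 0.11) for Cdkn1b. Cdkn1c (p57), an imprinted inhibitor, read 10.03, 9.84 and 9.85 in KO arrays, against 10.67, 10.05, 9.83 and 9.87 in WT arrays. WT replicate 1 stood above all other arrays, and the difference of -0.13 (SE 0.15; limma, adjusted p = 0.724) came to 0.0020 within scan batch 2.

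The Ink4 inhibitors act on Cdk4 and Cdk6 alone. Cdkn2b (p15), which TGF-beta induces, read 6.93, 7.23 and 6.90 in KO arrays, against 7.21, 6.93, 6.75 and 6.70 in WT arrays, a difference of 0.15 (SE 0.14; limma, adjusted p = 0.664). It was -0.14 within scan batch 1 and 0.34 within scan batch 2. Cdkn2a, whose locus encodes both p16 and p19Arf, differed by 0.053 (SE 0.076), and Cdkn2c (p18) by -0.033 (SE 0.099); Cdkn2d (p19) lay below the level filter, at 5.08 to 5.28 in KO arrays and 5.18 to 5.43 in WT arrays.

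The cyclin G genes are tied to arrest more than to the driving of CDKs. Ccng1, a p53 target, read 9.22, 9.75 and 9.23 in KO arrays, against 10.13, 9.14, 9.45 and 9.43 in WT arrays. Its difference of -0.13 (SE 0.24; 95% interval -0.69 to 0.42) was the least precise of all members, and WT replicate 1 was again the highest array. Ccng2, a cyclin that FoxO factors induce in resting cells, differed by 0.040 (SE 0.11) on its brighter probe set. A slightly dimmer Ccng2 probe set read 6.38, 6.53 and 6.39 in KO arrays, against 6.06, 6.31, 6.05 and 6.23 in WT arrays, without overlap, and gave 0.27 (SE 0.095), with an unadjusted limma p of 0.0219 and an adjusted limma p of 0.462 over all probe sets.

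The activator E2F factors, which switch on replication genes, had pairs of probe sets, and those of E2f2 and of E2f3 differed in sign. E2f1 was steady, between 8.23 and 8.26 in KO arrays and between 8.23 and 8.39 in WT arrays, with a difference of -0.037 (SE 0.082). E2f2 read 8.25, 8.51 and 8.43 in KO arrays, against 8.11, 8.41, 8.27 and 8.14 in WT arrays on its brighter probe set, a difference of 0.16 (SE 0.11; limma, adjusted p = 0.578). The dimmer E2f2 probe set read 7.12, 7.86 and 7.69 in KO arrays, against 7.66, 7.66, 8.22 and 7.73 in WT arrays, and gave -0.34 (SE 0.14), with an unadjusted limma p of 0.0416 and an adjusted limma p of 0.478 over all probe sets. E2f3 differed by -0.10 (SE 0.091) on the brighter and by 0.27 (SE 0.092) on the dimmer probe set (adjusted limma p of 0.457 over all probe sets), so neither gene had a settled direction. Over all 72 member probe sets, 9 (12.5%) had an unadjusted p under 0.05, against 10.2% of all 28898.

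Repressor E2F factors spanned differences of -0.15 to 0.058, and 0 of the 5 had an unadjusted p under 0.05. E2f6, which represses without pocket proteins, read 6.77, 6.96 and 6.83 in KO arrays, against 7.21, 6.76, 7.29 and 6.74 in WT arrays. The WT arrays fell into a high and a low pair around the KO arrays, and the difference was -0.15 (SE 0.16; limma, adjusted p = 0.694). E2f4, the pocket-protein partner of resting cells, differed by -0.052 (SE 0.095) and E2f5 by 0.025 (SE 0.086). E2f7 and E2f8, the atypical repressors that act as feedback in S phase and G2, differed by 0.058 (SE 0.073) and -0.025 (SE 0.13).

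Myc, the growth regulator downstream of Wnt signalling in the gut, read 9.44, 9.56 and 9.50 in KO arrays, against 9.59, 9.47, 9.82 and 9.41 in WT arrays. The KO arrays lay inside the WT range, and the difference was -0.085 (SE 0.11; 95% interval -0.34 to 0.17; limma, adjusted p = 0.755). Mycn, its relative, read 8.12, 8.04 and 8.13 in KO arrays, against 7.88, 8.27, 8.23 and 8.12 in WT arrays, a difference of -0.035 (SE 0.11). Another Mycn probe set read 5.39, 5.41 and 5.44 in KO arrays, against 5.28, 5.35, 5.35 and 5.22 in WT arrays, without overlap and in the opposite direction, with 0.11 (SE 0.058), an unadjusted limma p of 0.0849 and an exact permutation p of 0.0571. The remaining Mycn probe set, the dimmest, gave -0.10 (SE 0.056) with overlap.

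Other genes of the pathway, read as 7 lists, also gave 0 calls at an adjusted p under 0.05 (limma). Each count below stands against 7.14% of all genes higher and 4.26% lower in KO at an unadjusted p under 0.05. Of 24 tested E2F replication targets, 4 had a higher mean in KO at an unadjusted p under 0.05 and 0 a lower one, with a list median of 0.011. They were Slbp, the histone mRNA binding protein, with 0.35 (SE 0.12), the helicase subunit Mcm4 with 0.32 (SE 0.13), the licensing factor Cdt1 with 0.28 (SE 0.12) and the polymerase subunit Pola1 with 0.20 (SE 0.083), each with overlap. Of 24 mitotic genes of the DREAM and FoxM1 programme, 0 were higher and 2 lower at that threshold, with a median of -0.015. Ube2c, the ubiquitin-conjugating enzyme of the anaphase-promoting complex, read 9.86, 9.89 and 9.92 in KO arrays, against 10.13, 9.97, 10.37 and 10.36 in WT arrays, a difference of -0.35 (SE 0.083), with an unadjusted limma p of 0.00278 and an adjusted limma p of 0.368. Foxm1, the transcription factor of the mitotic programme, differed by -0.25 (SE 0.10). KO replicate 1 deviated by -0.18 over the mitotic list, against 0.031 and 0.14 in KO replicates 2 and 3 and between -0.028 and 0.048 in WT arrays, the same array as for the G2/M regulators.

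E2F partners and MuvB subunits had 0 of 6 tested genes at an unadjusted p under 0.05 (median 0.0045). Rbbp7 and Rbbp4, related histone-binding proteins of this list, differed by 0.28 (SE 0.15) and -0.32 (SE 0.31). Rbbp4 stood at 7.95 in KO replicate 1, against 9.49 and 9.59 in the other KO arrays and 8.81 to 9.57 in WT arrays. Of 17 SCF and anaphase-promoting complex genes 1 was higher, Anapc4 with 0.26 (SE 0.11), while Fzr1, the G1 activator of that complex, gave -0.26 (SE 0.13). Of 19 other CDKs and cyclins 1 was lower, Cdk14 with -0.15 (SE 0.066), and Ccnt1, the cyclin of transcription elongation, gave -0.26 (SE 0.12). Of 18 p53 targets 2 were higher and 2 lower: the repair factor Xpc with 0.40 (SE 0.12) and the desmosomal protein Perp with 0.29 (SE 0.087), both without overlap, and the antiproliferative factor Btg2 with -0.43 (SE 0.17) and the death receptor Tnfrsf10b with -0.29 (SE 0.11). The Myc network had 0 of 9, the smallest p values being those of Zbtb17 at -0.22 (SE 0.11) and Mga at 0.10 (SE 0.086).

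Markers of leukocytes, fibroblasts and endothelium differed in both directions within each list, and 1 gene carried the separation of each summed level. The 15 measured leukocyte markers summed to 6280 to 6884 on the linear scale in KO arrays, against 4041 to 5960 in WT arrays, but the lysozyme gene Lyz2 (difference 0.39, SE 0.15) made up 78.4% to 86.1% of each sum. Without Lyz2 the sums were 906 to 969 in KO arrays, against 872 to 1012 in WT arrays, and overlapped; of 10 tested leukocyte genes 4 had positive and 6 negative differences, with a median of -0.021. The 9 fibroblast markers summed to 2845 to 3162 in KO arrays, against 3167 to 3707 in WT arrays, with Vim (-0.29, SE 0.062) at 69.2% to 87.0% of each sum, and to 487 to 974 in KO arrays, against 471 to 982 in WT arrays, without it. Of 6 tested fibroblast genes 3 were positive and 3 negative (median -0.013), and Thy1 differed by 0.17 (SE 0.066). The 6 endothelial markers summed to 290 to 311 in KO arrays, against 313 to 336 in WT arrays, and without Cdh5 (-0.41, SE 0.093) to 221 to 240 in KO arrays, against 228 to 238 in WT arrays. Of 4 tested endothelial genes 2 were positive and 2 negative, and Pecam1 differed by 0.041 (SE 0.075). Sums of the epithelial, colonocyte and goblet cell lists overlapped. Of 10 tested epithelial genes 4 had positive and 6 negative differences (median -0.012). Of 7 tested colonocyte genes 5 were positive and 2 negative (median 0.22), with Guca2a at 0.85 (SE 0.30). Of 5 tested goblet cell genes 4 were positive and 1 negative (median 0.36), with Atoh1 at 0.63 (SE 0.27) and Tff3 at 0.81 (SE 0.44). The median over all genes was -0.019. The part of these cell types in the differences of Rb1, Rbl1, Ccnd2, Ccnf and Cdkn3 was not tested.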

How the data were processed

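The authors deposited log2 levels per probe set for 7 arrays, made with RMA, per the submitters' processing notes. RMA removes background, puts arrays on one scale and gives each set a single value; the version used, and any filtering or batch correction, are not stated in those notes or the labels. There were 45141 probe sets, of which 28898 were paired with 1 gene symbol, 551 with several, 15588 with none and 104 were controls. Symbols were checked through RefSeq gene numbers (28689 matched, 0 updated). Medians per array lay between 5.96 and 6.00. In 19995 probe sets at least 2 arrays carried the same value, which RMA can produce and which makes some spreads look small.

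Each gene was represented by its brightest probe set on average, and the 25% of genes with the lowest mean over all arrays (cut at 5.28) were left out, which removed Ccne2 and Cdkn2d; values of those, and of other probe sets of a gene, come from fits with no filter. The genotypes were compared by limma 3.58.1 under R 4.3.3 (lmFit, then eBayes with its mean-variance trend), with scan batch as a covariate and Benjamini-Hochberg adjustment over 12822 genes; differences are KO minus WT, tests are two-sided and 4 residual degrees of freedom remained. Exact permutation tests compared the size of the mean difference over 35 splits (SciPy 1.17.1). The number of arrays limits the precision. In 10 simulated runs of 12822 genes with 200 changed, recovery was 53.8% for log2 changes of 0.5, 87.4% for changes of 1 and 99.6% for changes of 2, with 5.16% of calls false. Noise was drawn separately for each gene and array, without shifts shared by many genes of an array, and most planted changes were of 1 or 2. These rates may therefore overstate recovery in these arrays, where Mex3a, at -1.13, was not called (limma, adjusted p = 0.142).

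A member is given with every array's value where its unadjusted p was under 0.05, its difference at least 0.5, its groups did not overlap or its p was the smallest of its role; of other lists the 2 genes of smallest p are named, and other genes counted at p under 0.05 (Cdt1, Pola1, Btg2, Tnfrsf10b), some further members and further probe sets were named after their values were seen. Marker sums without their brightest gene were added after the values were seen. Members and lists were chosen with earlier results of these data known. In all, 19 alternatives were run.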

Additional observations from a re-analysis of the deposited data

Results flagged for a closer look

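A WT array lay far from the other 3 in 3 of 40 genes checked (Dixon's test, critical value 0.829), where chance gives about 1 in 20. Cdk1 stood at 9.70 in WT replicate 4, with the nearest WT array at 9.56. E2f1 stood at 8.39 in WT replicate 3, with the nearest at 8.25. Rbl2 stood at 6.36 in WT replicate 1, with the nearest at 6.07. KO groups of 3 arrays were not checked.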

How the results depend on the processing

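With array weights, which ranged from 0.297 for KO replicate 1 to 3.04 for KO replicate 2, limma called 1370 genes (10.7%) in place of 0, and among the members 5 of 37: Rb1 and Cdkn3 higher, and Ccnd2, Ccne1 and Cdk2 lower in KO. With 1 array left out, 0 to 2 genes were called (2 without WT replicate 2 and 2 without WT replicate 4), and 0 members. In every alternative other than array weights, 0 members were called. With the Gapdh 3′ minus 5′ difference as a covariate, 18.9% of members had an unadjusted limma p under 0.05, against 7.86% of all genes. Of these members 3 were higher and 4 lower in KO. In that fit Rb1 came to 0.43, Rbl1 to 0.33, Ccnd2 to -0.14, Ccnf to -0.33 and Cdkn3 to 0.13. The median of the G1 regulators was 0.027 in scan batch 1 and -0.025 with the Gapdh 3′ minus 5′ difference as a covariate, and with 1 array left out it ran from -0.17 to -0.081. The median of the G2/M regulators was -0.20 in scan batch 1 and -0.12 with the Gapdh covariate. With 1 array left out it ran from -0.10 to -0.013, its weakest value without KO replicate 1.

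Of 244 values of named genes under the alternatives, 227 kept direction and side of the threshold, 5 passed it and 12 turned sign. Ccng1 turned to 0.047 in scan batch 2, 0.036 with array weights and 0.0058 with the Gapdh covariate, with -0.31 to 0.060 when 1 array was left out. Cdkn1c turned to 0.0020 in scan batch 2 (-0.21 to 0.0020 with 1 array left out), Cdkn2b to -0.14 in scan batch 1, and E2f2 to -0.34 with the probe set of largest variance, -0.088 with the mean of probe sets and -0.0042 in scan batch 1. Myc ran from -0.19 to 0.019 with 1 array left out, positive without WT replicate 3. The cause was not tested. On the probe set used, or the one an alternative chose, Rb1, Rbl1, Rbl2, Ccnd2, Ccnf and Cdkn3 kept their sign in every alternative that gave a value, but other probe sets of Rb1 (-0.076), Rbl2 (0.12) and Ccnf (0.0044) had the opposite sign. Over all alternatives Rb1 ran from 0.16 to 0.50, Rbl1 from 0.14 to 0.34, Rbl2 from -0.23 to -0.012, Ccnd2 from -0.27 to -0.10, Ccnf from -0.46 to -0.19 and Cdkn3 from 0.074 to 0.44. Rb1, Rbl1 and Rbl2 had no value with the lower 50% of genes left out. Rbl2 came to -0.085 without KO replicate 1 or WT replicate 1, and Rb1, Rbl1, Ccnd2, Ccnf and Cdkn3 stayed within 1.5 times of their values with any 1 array left out. No paired analysis was possible because the replicate numbers only name arrays in accession order. Where a single KO array remained, it was assumed to vary like the others.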
